A study of Homo sapiens with 4 samples.

Results

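The TNF superfamily ligands were followed in THP-1 cells that had been transfected with a microRNA mimic or with a negative control mimic. The 10 genes chosen were TNF, TNFSF4, TNFSF8, TNFSF9, TNFSF10, TNFSF12, TNFSF13, TNFSF13B, TNFSF14 and TNFSF15, each taken from a probe set annotated with that symbol alone. Of these, 9 were measured among 17687 genes in all, each by 1 probe set, and TNF itself was not analysed here. THP-1 is an established human monocytic leukaemia line, although the labels also call the cells lymphocyte-like. Every culture first received 100 ng/ml PMA, a phorbol ester that makes these cells macrophage-like, for 2 days, and was transfected with RNAiMAX lipid for 24 h. The 4 groups were a let-7d-5p mimic, a miR-27b-3p mimic, a miR-151a-5p mimic and a negative control mimic, with 1 Affymetrix Clariom S array in each and no replicates. The question was how the ligands differed between each mimic and the control. In the sample titles the first mimic is let-7d-5p, but in the design text and the transfection protocol it is let-7a-5p, and the study describes other arrays for let-7a-5p and let-7d-3p, so the identity of this mimic could not be settled and its array is called by its title.

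The ligands of this superfamily are mostly trimeric membrane proteins, some of which are cut from the cell surface, and they signal through TNF receptor superfamily members that recruit TRAF adaptors or death domain proteins. Monocytes and macrophages use them to support B cells, to costimulate T cells and to kill target cells. TNFSF13B (BAFF) and TNFSF10 (TRAIL) are known as genes that interferons induce in myeloid cells, and TNFSF4 (OX40L) is a costimulatory ligand of antigen-presenting cells. A microRNA mimic acts mainly through the seed, bases 2 to 8 of the mature strand, which pairs with target mRNAs.

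The mature sequences are shown because the let-7 names in the labels differ, with the seed in capitals, 5′ to 3′ (RefSeq, GRCh38.p14; chr9:94178841-94178862, chr9:94175962-94175983 and chr9:95085505-95085525, all on the plus strand).
let-7d-5p: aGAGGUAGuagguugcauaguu
let-7a-5p: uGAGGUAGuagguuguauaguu
miR-27b-3p: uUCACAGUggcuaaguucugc
Counted from the 5′ end, let-7d-5p carries U1A and U16C relative to let-7a-5p, and both substitutions lie outside the seed. The seed GAGGUAG is shared by 11 of 2370 mature human microRNAs in the table, and the seed UCACAGU of miR-27b-3p by 3. The miR-151a-5p mimic is given by name only.

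The median log2 signals of the arrays lay between 6.89 and 6.93, and pairs of arrays correlated with Pearson's r of 0.993 to 0.995 over probe sets. The deposited values came from RMA, a method that makes the arrays' distributions equal, so the medians do not show how alike the cultures were. The correlations mostly reflect that probe sets differ in level. The values of 349 olfactory receptor genes, of which 95% lay below 5.34, gave that signal as a background floor. It is an approximate guide, because the level of a probe set also depends on its probes, and levels of different genes were therefore not compared. Of the macrophage markers 16 of 17 lay above the floor on all arrays, including CD14, CD68 and CSF1R, and only MRC1 lay below it on all of them. Of the T and NK cell markers 8 of 15 lay below the floor on all arrays, and their mean log2 signals were 5.19, 5.03 and 5.26 on the let-7d-5p array, the miR-27b-3p array and the miR-151a-5p array, and 5.11 on the control array. Of the B and plasma cell markers 5 of 10 lay below the floor on all arrays, with mean log2 signals of 5.58, 5.70 and 5.63 on the mimic arrays in that order and 5.53 on the control array. The markers of fibroblasts, endothelium and epithelium lay at 5.82, 5.90 and 5.88 on the mimic arrays and at 5.89 on the control array, and 7 of 13 were below the floor on all of them. Since whole cultures were measured, more RNA per cell and more cells that express a gene cannot be told apart.

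TNFSF13B, TNFSF10 and TNFSF4 were the ligands that were at least 2-fold above the control with 1 or more mimics. Each of them was higher than the control with all 3 mimics, though none was 2-fold higher with every mimic. TNFSF13B and TNFSF4 were highest with let-7d-5p, and TNFSF10 was highest with miR-27b-3p. The other 6 ligands lay within 2-fold of the control on every mimic array. At a size of 2-fold, the let-7d-5p array held 2 of 9 ligands that were higher (TNFSF13B and TNFSF4) and 0 that were lower, against 0.588% and 0.407% of all genes. The miR-27b-3p array held 2 of 9 that were higher (TNFSF13B and TNFSF10) and 0 that were lower, against 0.605% and 0.503% of all genes. The miR-151a-5p array held 0 in either direction, against 0.972% and 0.328%. The members were chosen with these values known, so the counts describe the arrays and are not a test, and the 3 comparisons share the same control array.

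**Figure D1:**
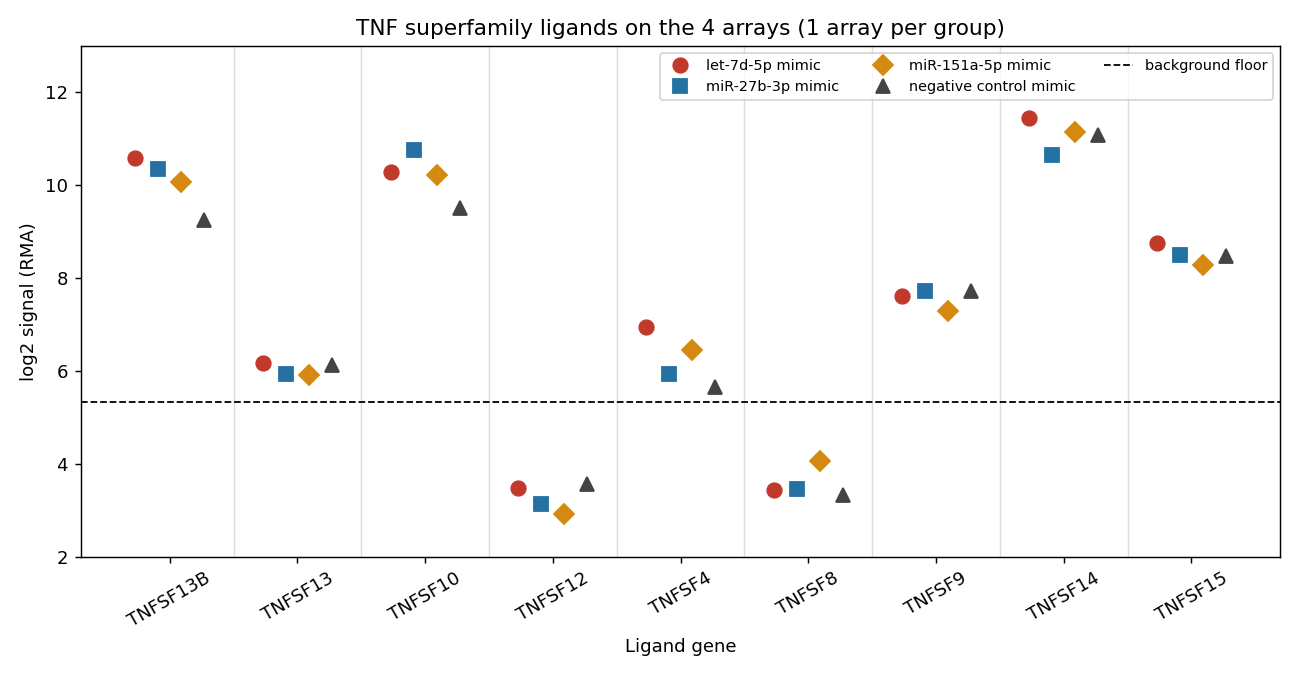
log2 signals (vertical axis) of the 9 ligand genes (horizontal axis) on the arrays of let-7d-5p, of miR-27b-3p, of miR-151a-5p and of the negative control, 1 point per array, with the background floor of 5.34 dashed. TNFSF13B, TNFSF10 and TNFSF4 lie lowest on the control array, whereas TNFSF12 and TNFSF8 lie below the floor on all 4 arrays.

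TNFSF13B encodes BAFF, a survival factor for B cells. Its log2 signals were 10.58 with let-7d-5p, 10.35 with miR-27b-3p and 10.07 with miR-151a-5p, and 9.26 with the negative control. All 3 mimic arrays lay above the control array, and the gap between the control and the nearest mimic array exceeded the spread among the mimic arrays. TNFSF13B was thus 2.50-fold higher with let-7d-5p (log2 difference 1.32), 2.13-fold higher with miR-27b-3p (1.09) and 1.75-fold higher with miR-151a-5p (0.81). Among genes at or above the floor on the mimic or the control array, its difference ranked 8 from the highest of 11893 with let-7d-5p, 26 of 11928 with miR-27b-3p and 234 of 11902 with miR-151a-5p.

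TNFSF13 encodes APRIL, which shares receptors with BAFF and supports plasma cells. Its log2 signals were 6.17, 5.94 and 5.91 with let-7d-5p, with miR-27b-3p and with miR-151a-5p, and 6.13 with the control. The control lay between the mimic values, with differences of 0.04, -0.19 and -0.22. The difference of APRIL from the control was smaller than that of BAFF on each mimic array. Of their receptors, TNFRSF13B (TACI) differed by -0.14, -0.38 and -0.07 on the 3 mimic arrays in the same order, and TNFRSF17 (BCMA) lay below the floor on all 4 arrays.

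TNFSF10 encodes TRAIL, which can induce apoptosis through death receptors. Its log2 signals were 10.29 with let-7d-5p, 10.75 with miR-27b-3p and 10.22 with miR-151a-5p, and 9.51 with the negative control. Every mimic array lay above the control, and the miR-27b-3p array was the highest. The gene was 1.72-fold higher with let-7d-5p (log2 difference 0.78), 2.36-fold higher with miR-27b-3p (1.24) and 1.64-fold higher with miR-151a-5p (0.71). These differences ranked 130, 16 and 318 from the highest among the same genes.

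The receptors of TRAIL did not differ in this way. TNFRSF10A (death receptor 4) differed by -0.34, -0.20 and -0.18 with let-7d-5p, with miR-27b-3p and with miR-151a-5p, TNFRSF10B (death receptor 5) by 0.19, -0.11 and 0.12, and the decoy receptor TNFRSF10D by 0.06, -0.18 and -0.05. None of them reached 1.5-fold on any mimic array.

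TNFSF12 encodes TWEAK, a ligand of the receptor Fn14. Its log2 signals were 3.48, 3.13 and 2.91 with the 3 mimics in the same order and 3.57 with the control, below the floor on every array. It was lower by 0.09, 0.44 and 0.66 on the log2 scale, but at this signal the sizes are uncertain. TNFSF12 lies next to TNFSF13 and RefSeq annotates a read-through gene that joins them, so the values of the pair may not be independent.

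TNFSF4 encodes OX40L, which costimulates T cells through OX40. Its log2 signals were 6.94 with let-7d-5p, 5.93 with miR-27b-3p and 6.46 with miR-151a-5p, and 5.65 with the control. The mimic arrays again lay above the control, but the miR-27b-3p array lay close to it, and the control value was near the floor. TNFSF4 was 2.45-fold higher with let-7d-5p (log2 difference 1.29), 1.21-fold higher with miR-27b-3p (0.28) and 1.75-fold higher with miR-151a-5p (0.81). These differences ranked 10, 1886 and 234 from the highest. The gene of its receptor, TNFRSF4, lay below the floor on all 4 arrays.

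The other costimulatory ligands were closer to the control. TNFSF14 (LIGHT), a ligand of HVEM and of the lymphotoxin beta receptor, had log2 signals of 11.45, 10.65 and 11.14 with let-7d-5p, with miR-27b-3p and with miR-151a-5p, and of 11.09 with the control. It was 1.28-fold higher with let-7d-5p (log2 difference 0.36) and 1.36-fold lower with miR-27b-3p (-0.44), whereas miR-151a-5p lay near the control (0.05). TNFSF9 (4-1BB ligand) had 7.61, 7.73 and 7.28 on the mimic arrays and 7.72 on the control array, so that only the miR-151a-5p array stood apart, at -0.44. TNFSF15 (TL1A), the ligand of death receptor 3, had 8.76, 8.49 and 8.29 on the mimic arrays and 8.47 on the control array, with differences of 0.29, 0.02 and -0.18. The control lay between the mimic values of TNFSF14, TNFSF15 and TNFSF9. TNFSF8 (CD30 ligand) had 3.44, 3.46 and 4.07 on the mimic arrays and 3.32 on the control array, below the floor throughout, and its difference with miR-151a-5p was 0.75, or 0.34 with a pseudocount of 16 on the linear signals.

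**Figure D2:**
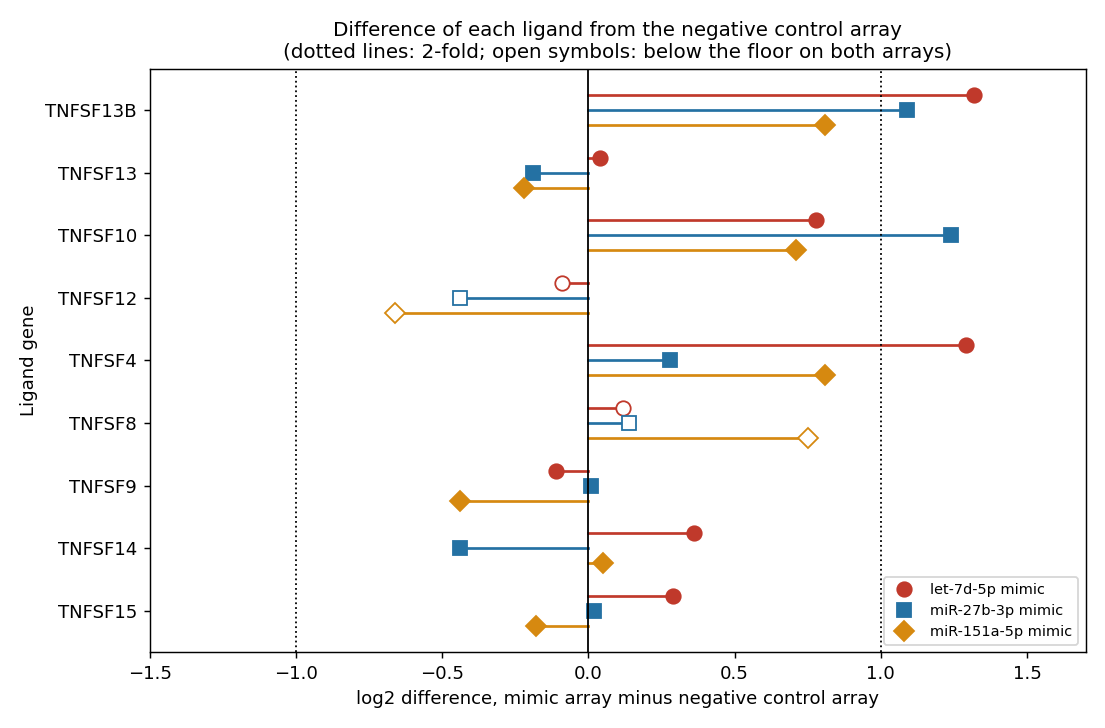
log2 difference of each ligand (rows) from the negative control array (horizontal axis) on the array of let-7d-5p, that of miR-27b-3p and that of miR-151a-5p, 1 point per array. Only TNFSF13B and TNFSF4 with let-7d-5p and TNFSF13B and TNFSF10 with miR-27b-3p pass the dotted 2-fold lines, and open symbols mark TNFSF12 and TNFSF8, which were below the floor on both arrays compared.

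With a size of 1.5-fold in place of 2-fold, TNFSF13B and TNFSF10 were counted with all 3 mimics. On the let-7d-5p array 3 of 9 ligands were then higher (with TNFSF4) and 0 lower, against 4.42% and 3.56% of all genes. On the miR-27b-3p array 2 of 9 were higher and 0 lower, against 5.07% and 4.70%. On the miR-151a-5p array 4 of 9 were higher (with TNFSF4 and TNFSF8) and 1 lower (TNFSF12), against 5.29% and 3.57%. TNFSF8 and TNFSF12 were below the floor there, and with the pseudocount neither reached 1.5-fold. At the 3-fold ratio that the study used, 0 ligands were higher or lower with any mimic. The share of all genes past 3-fold was 0.0226% higher and 0.00565% lower with let-7d-5p, 0.0396% and 0.0170% with miR-27b-3p, and 0.0226% in each direction with miR-151a-5p.

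As a set, the 9 ligands had a median log2 difference of 0.29 on the let-7d-5p array, where 7 were higher and 2 lower, beside a median of 0.00 over all genes. With miR-27b-3p the median was 0.02, with 6 higher and 3 lower, beside 0.01 over all genes. With miR-151a-5p it was 0.05, with 5 higher and 4 lower, beside -0.01. The standard deviation of the differences over genes at or above the floor was 0.30, 0.33 and 0.32 in the same order, and it describes genes rather than cultures. Above the floor, the differences past 1.5-fold were those of TNFSF13B, TNFSF10 and TNFSF4.

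**Figure D3:**
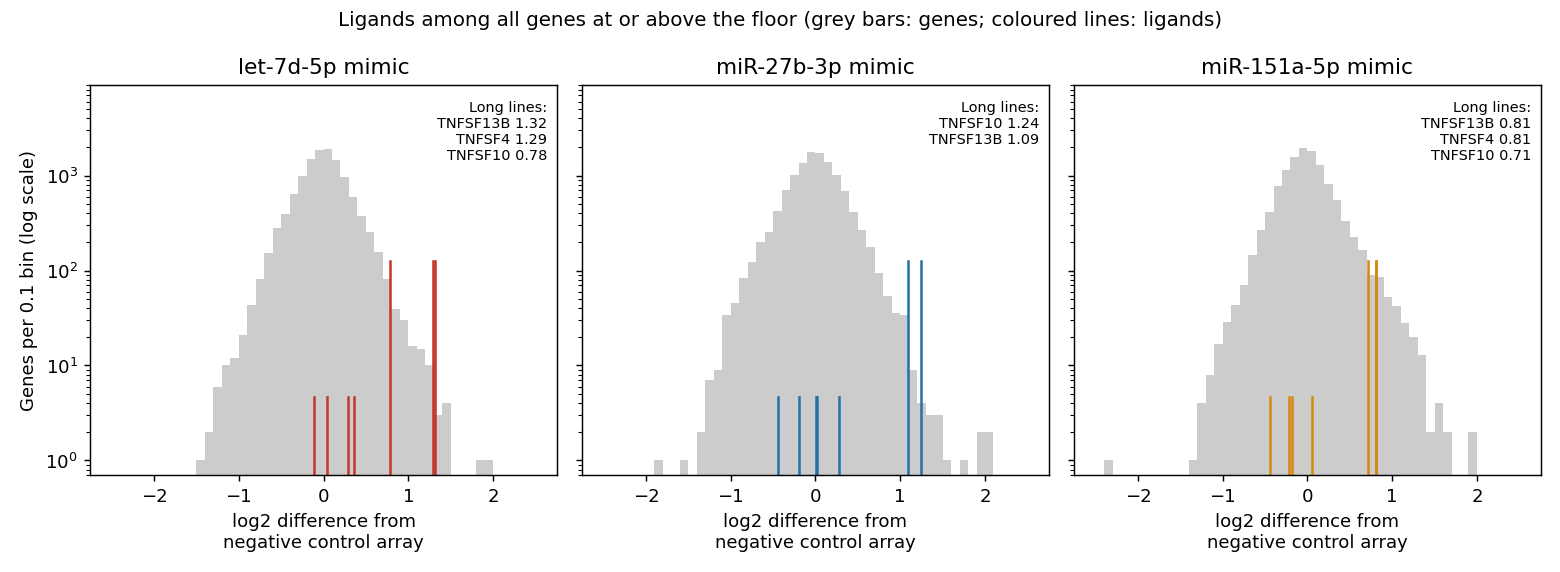
Histograms of the log2 differences from the negative control array (horizontal axis, bins of 0.1) for genes at or above the floor on either array (grey, log scale), with the 7 ligands above the floor as coloured lines and the ligands past 1.5-fold as long lines with their values. TNFSF13B (1.32), TNFSF4 (1.29) and TNFSF10 (1.24 with miR-27b-3p) lie in the upper tail, and the other ligands lie in the body of the distribution.

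Differences between mimic arrays do not depend on the control array. TNFSF4 was 2.01-fold higher with let-7d-5p than with miR-27b-3p (log2 difference 1.01), and it was the 1 ligand of 9 that was 2-fold higher, with 0 lower, against 0.548% and 0.628% of all genes. TNFSF14 was 1.74-fold higher in the same comparison (0.80). TNFSF10 was lower with let-7d-5p than with miR-27b-3p, at -0.46, and TNFSF13B differed by 0.23. Between let-7d-5p and miR-151a-5p 0 ligands were 2-fold higher or lower, against 0.464% and 1.03% of all genes, and TNFSF13B and TNFSF4 differed by 0.51 and 0.48. Between miR-27b-3p and miR-151a-5p also 0 passed 2-fold, against 0.650% and 1.62%, with TNFSF10 at 0.53 and TNFSF4 at -0.53. Relative to the average of both other mimics, TNFSF4 was higher by 0.75 and TNFSF13B by 0.37 with let-7d-5p, and TNFSF10 was higher by 0.50 with miR-27b-3p. TNFSF4 thus differed more between the mimic arrays than TNFSF13B did.

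Of the other TNF superfamily ligands, 7 of 8 were measured and 1 passed 2-fold, being lower with let-7d-5p, against 0.407% of all genes. TNFSF18 (GITR ligand), a costimulatory ligand whose gene neighbours TNFSF4 with no protein-coding gene between them, had log2 signals of 5.40 with let-7d-5p, 6.79 with miR-27b-3p and 6.28 with miR-151a-5p, and 6.50 with the control. It was lowest on the array on which TNFSF4 was highest, at a difference of -1.10, and its signal there was close to the floor. With miR-27b-3p the pair differed from the control alike, by 0.29 for TNFSF18 and 0.28 for TNFSF4, and with miR-151a-5p TNFSF18 differed by -0.22. LTB (lymphotoxin beta) differed by 0.23, 0.25 and 0.10 with the 3 mimics in the same order, and TNFSF11 (RANKL) by 0.05, -0.56 and 0.10. LTA, FASLG, CD70 and EDA lay below the floor on all 4 arrays. The neighbouring genes TNFSF15 and TNFSF8 differed by 0.29 and 0.12 with let-7d-5p, by 0.02 and 0.14 with miR-27b-3p and by -0.18 and 0.75 with miR-151a-5p. TNFSF9 and TNFSF14, which lie on either side of CD70, differed by -0.11 and 0.36, by 0.01 and -0.44, and by -0.44 and 0.05.

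In the rest of the pathway, no measured gene passed 2-fold among the TNF receptors (25 genes), the receptor adaptors and ubiquitin ligases (19), death receptor signalling (13), ligand shedding and processing (11) and regulators of TNF mRNA decay (9). Of all genes, 0.588%, 0.605% and 0.972% were 2-fold higher with let-7d-5p, with miR-27b-3p and with miR-151a-5p, and 0.407%, 0.503% and 0.328% lower. Counts of 0 in lists this short are near those shares. The medians of these lists lay between -0.10 and 0.06 on the 3 mimic arrays. Among receptors, TNFRSF9 (4-1BB) was higher by 0.75 and TNFRSF21 (death receptor 6) lower by 0.88 with miR-27b-3p, TNFRSF11A (RANK) was higher by 0.76 with let-7d-5p, and TNFRSF18 (GITR) differed by -0.65 with miR-151a-5p. The adaptor TRAF1, itself an NF-kB target, was higher by 0.62, 0.67 and 0.43 with let-7d-5p, with miR-27b-3p and with miR-151a-5p. MAP3K14 (NIK), the kinase of non-canonical NF-kB signalling, which BAFF activates in B cells, differed by -0.54, -0.59 and -0.02. TRAF4 differed by -0.59, 0.51 and -0.11 in the same order, and its signal with let-7d-5p (4.93) was below the floor. RNF31, the catalytic subunit of the linear ubiquitin ligase, differed by 0.53 with miR-27b-3p.

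Further down, MLKL, the executor of necroptosis, was higher by 0.59, 0.42 and 0.70 with the 3 mimics in the same order, whereas RIPK3, the kinase that activates it, differed by -0.20, -0.39 and -0.44. Of the proteases, ADAM17, which sheds TNF, differed by 0.07, -0.01 and -0.01, and FURIN, which cleaves BAFF and APRIL, by -0.07, -0.19 and -0.37. SPPL2A and SPPL2B, intramembrane proteases that cut TNF, differed by 0.45, 0.51 and 0.38 and by -0.40, -0.57 and -0.14, and the convertase PCSK7 by 0.38, 0.52 and 0.15. ZFP36 (tristetraprolin), which promotes decay of TNF mRNA, was lower by 0.87 with miR-27b-3p and differed by -0.35 with let-7d-5p and by -0.34 with miR-151a-5p. TIA1, which represses translation of TNF mRNA, was higher by 0.45 with miR-27b-3p.

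NF-kB targets that TNF induces had medians of 0.26, 0.28 and 0.19 with let-7d-5p, with miR-27b-3p and with miR-151a-5p. Of 19 measured genes 17, 17 and 15 were higher. The medians over all genes were 0.00, 0.01 and -0.01 in the same order. At 2-fold 0 were higher or lower, against 0.588%, 0.605% and 0.972% of all genes higher and 0.407%, 0.503% and 0.328% lower. CCL20 (0.95, 0.92 and 0.53) and CXCL8 (0.54, 0.91 and 0.77), both chemokines, and PTGS2 (0.29, 0.86 and 0.38), the inducible cyclooxygenase, differed most.

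Interferon-stimulated genes had medians of 0.61, 0.42 and 0.47 on the mimic arrays in the same order. All 23 measured genes were higher with let-7d-5p and with miR-27b-3p, and 22 with miR-151a-5p. Over all genes the medians were 0.00, 0.01 and -0.01. At 2-fold, 4 were higher with let-7d-5p (RSAD2 at 1.14, HERC5 at 1.13, IFIT2 at 1.12 and CMPK2 at 1.02), against 0.588% of all genes. With miR-27b-3p 1 was higher (IFIT2 at 1.13), against 0.605%, and with miR-151a-5p 0 were, against 0.972%. Lower by 2-fold were 0 with any mimic, against 0.407%, 0.503% and 0.328% of all genes in the same order. CXCL10, an interferon-induced chemokine, differed by 1.91, 1.90 and 1.37. The study named it as more than 3-fold higher with miR-27b-3p and let-7a-5p, among others, but did not name it for miR-151a-5p. A ratio of 3-fold is 1.58 on the log2 scale, which the difference with miR-151a-5p did not reach here. The differences of TNFSF13B and TNFSF10 were thus above the medians of this list on every mimic array, and that of TNFSF4 was below the median with miR-27b-3p. The part of interferon or NF-kB signalling in these values was not tested.

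**Figure D4:**
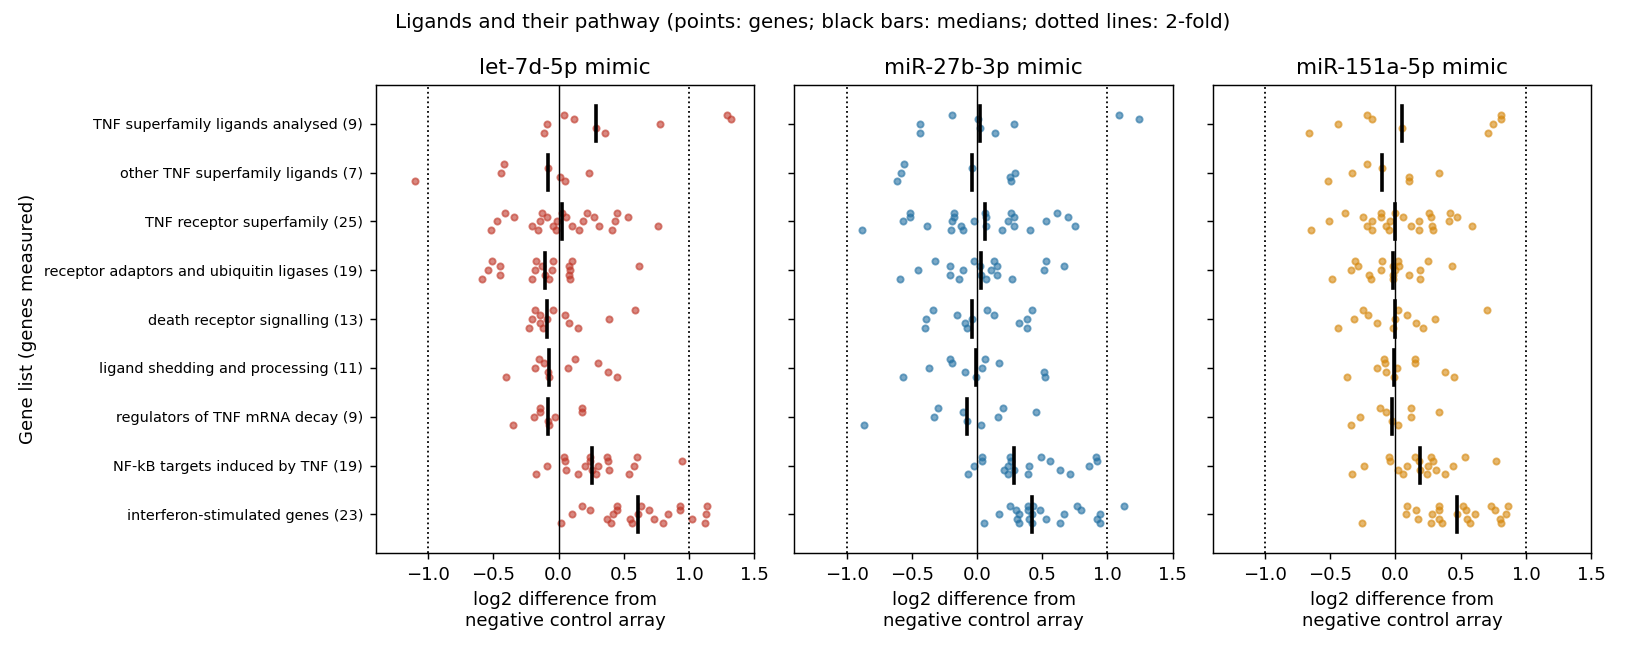
log2 differences from the negative control array (horizontal axis) for the 9 ligands and 8 gene lists (rows, with the number of genes measured) on the 3 mimic arrays, 1 point per gene, with black bars at the medians and dotted lines at 2-fold. The interferon-stimulated genes have medians of 0.61, 0.42 and 0.47 with let-7d-5p, with miR-27b-3p and with miR-151a-5p, and the ligands spread over both sides of 0.

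The promoters of the ligands that were higher are shown because interferon acts through a short response element. The windows span 250 bases before to 50 after a transcript start (RefSeq, GRCh38.p14), 5′ to 3′ on the gene's strand, and capitals mark the core of an interferon-stimulated response element, which is GAAA and GAAA with 2 bases between them, on either strand. The windows lie at chr13:108269468-108269767 (plus strand) for TNFSF13B, chr3:172523381-172523680 (minus strand) for TNFSF10 and chr1:173205483-173205782 (minus strand) for TNFSF4.
TNFSF13B: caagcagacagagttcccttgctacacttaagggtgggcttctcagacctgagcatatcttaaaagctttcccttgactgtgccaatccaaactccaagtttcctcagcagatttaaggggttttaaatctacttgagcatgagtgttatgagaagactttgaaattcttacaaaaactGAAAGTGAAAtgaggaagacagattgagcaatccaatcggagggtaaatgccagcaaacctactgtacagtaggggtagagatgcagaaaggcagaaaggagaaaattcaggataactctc
TNFSF10: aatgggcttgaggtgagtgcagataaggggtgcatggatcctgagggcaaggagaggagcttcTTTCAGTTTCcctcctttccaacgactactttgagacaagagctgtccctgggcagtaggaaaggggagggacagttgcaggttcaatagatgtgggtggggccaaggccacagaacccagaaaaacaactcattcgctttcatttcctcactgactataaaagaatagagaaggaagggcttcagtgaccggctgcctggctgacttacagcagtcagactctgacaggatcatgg
TNFSF4: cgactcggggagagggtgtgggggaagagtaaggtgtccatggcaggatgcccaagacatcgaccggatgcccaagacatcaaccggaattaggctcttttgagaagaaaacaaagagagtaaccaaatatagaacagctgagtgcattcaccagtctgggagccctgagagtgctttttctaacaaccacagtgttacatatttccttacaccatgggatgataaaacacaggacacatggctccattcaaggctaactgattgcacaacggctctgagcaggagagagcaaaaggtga
The element lies at positions -71 to -62 from this start of TNFSF13B and at positions 18 to 27 from the start used for its other window. In TNFSF10 it lies at positions -187 to -178. The TNFSF4 window held none.

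Of the 10 ligands 8 had windows in the table, 11 in all, since a gene with several starts has several windows, which can overlap. The element was found in 6 of these 11 windows, against 3.57% of all 35116 windows, and the 6 belonged to 4 genes, TNFSF13B, TNFSF10, TNFSF14 and TNFSF9. Both windows of TNFSF13B held the same copy, as did both of TNFSF14, so the window counts are not independent. TNFSF14 and TNFSF9 match the same pattern with other bases in its middle, and neither was 1.5-fold higher with any mimic. The gamma-activated site (TTCNNNGAA) was found in 0 of the 11 windows and in 7.66% of all windows. The NF-kB core (GGG and CC with 5 bases between them), which 58.7% of all windows held, was found in 7 of the 11, those of TNF, TNFSF9, TNFSF10, TNFSF13 and TNFSF14. The AP-1 site (TGANTCA), through which PMA acts, was found in 3 of the 11, those of TNFSF14 and TNFSF15, and in 7.71% of all windows. The TATA box (TATAAA) was found in 3 of the 11, those of TNF, TNFSF9 and TNFSF10, and in 11.5% of all windows. All motifs were searched on both strands, and matches of different motifs were counted separately where they overlapped. They describe the letters of these windows and not the binding of a factor.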

How the data were processed

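Gene expression was measured on 4 Clariom S arrays, 1 per group. The authors deposited 1 log2 signal for each probe set and array, with 2 decimals, made with RMA (Transcriptome Analysis Console 4.0, per the submitters' processing notes). This method subtracts background and makes the arrays' distributions equal, so a shift common to all genes would have been removed. For the array annotation the genome build was not given in the sources used here. Of 21448 probe sets, 17709 (82.6%) were annotated with 1 symbol, and for genes with several the probe set with the highest mean was used. Differences were mimic minus control log2 values, and no p-value was computed because no group had replicates. The number of arrays limits the precision.

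The members and the gene lists (141 genes in 8 pathway lists, 126 measured, and 4 marker lists) were chosen with earlier results of these data known. All ligands were named, and in each list the genes past 2-fold or, if none, up to 4 with the largest differences above the floor. Receptors of named ligands, ADAM17 and FURIN were added for their roles after their values were seen. Symbols of the 9 members matched RefSeq by gene identifier. Seed matches in transcripts were not searched. Alternatives covered quantile normalization, cyclic loess, median centring, a pseudocount of 16, probe set means, the floor, the size rule and the reference. The counting of genes past 2-fold was checked on copies of the control array with larger known differences added. That checks the counting only and not the precision of the ligand values. The calculations used Python 3.11.15, numpy 2.4.6, pandas 2.3.3, matplotlib 3.10.9, R 4.3.3 and limma 3.58.1.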

Additional observations from a re-analysis of the deposited data

How the results depend on the processing

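The differences of the 9 ligands from the control kept their sign on the 3 mimic arrays under quantile normalization, cyclic loess and median centring. RMA had already made the distributions of the deposited values equal, so rescaling them again could move them little and is a weak check. A pseudocount of 16 keeps the order of the values and so could not change a sign. The mean of probe sets could change nothing, since each ligand had 1 probe set. In 19 of 27 the values spanned at most 0.10 on the log2 scale, and the largest span was 0.47, for TNFSF12 with miR-151a-5p, which lay below the floor. With the pseudocount TNFSF4 with let-7d-5p was higher by 1.07. The counts past 2-fold were the same under these settings and among ligands above the floor only. On at least 1 array, 7 ligands were above the floor with its 90th percentile as well, but 6 with its 99th (6.27), without TNFSF13. At that stricter floor TNFSF4 passed only with let-7d-5p (6.94) and miR-151a-5p (6.46). Its values with miR-27b-3p (5.93) and the control (5.65) lay below it. With the pseudocount the differences below the floor with miR-151a-5p were 0.34 for TNFSF8 and -0.25 for TNFSF12, under 1.5-fold.

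With the average of both other mimics as the reference, 0 ligands were 2-fold higher with let-7d-5p or with miR-27b-3p, and the median over ligands with miR-151a-5p was -0.30. At 3-fold, 0 were higher with let-7d-5p or miR-27b-3p. At 1.5-fold, 4 were higher and 1 was lower with miR-151a-5p. The changes with the size rule follow from its construction. With the other reference, differences that a mimic shares with both others cancel, and TNFSF4 with let-7d-5p was still higher by 0.75. No paired analysis was possible because each group held 1 array. Without replicates, differences between cultures cannot be told apart from effects of a mimic, and values near the floor are the least certain.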

Other observations

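Among 12180 other genes above the floor on any array, those nearest to a ligand were taken by the Euclidean distance between their 3 log2 differences from the control, which share the control array. Nearest to TNFSF13B were DDX3Y, an RNA helicase (distance 0.11), IRAG1 (0.14) and IFIT2, an antiviral protein (0.20). IFIT2 differed by 1.12, 1.13 and 0.80 with let-7d-5p, with miR-27b-3p and with miR-151a-5p. Nearest to TNFSF10 were MST1R, the receptor RON (0.14), LRRC4B (0.19) and GPR183, an oxysterol receptor (0.19), which differed by 0.75, 1.12 and 0.56. MST1R was below the floor on the let-7d-5p, miR-151a-5p and control arrays, and IRAG1 and LRRC4B were below it on the control array. Nearest to TNFSF4 were the monocyte chemokines CCL2 (0.16) and CCL8 (0.18) and PRAMEF27 (0.25). PRAMEF27 entered the search only through the let-7d-5p array and was below the floor on the others. CCL2 differed by 1.45, 0.28 and 0.85, and CCL8 by 1.20, 0.26 and 0.66. These are descriptions over 3 differences and say nothing of shared control.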
